A study of Homo sapiens with 4 samples.

Results

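The cytosolic ribosome is built from ribosomal RNA and a fixed set of proteins, 1 gene for most of them. This account follows 85 genes of that set among the 25317 gene symbols of the deposited tables. They were taken by name: RPSA, RPLP0, RPLP1, RPLP2, and every RPL or RPS gene with a number and an optional A, X, L, L1 or AL, without the S6 kinases, pseudogenes and Y-linked copies. They comprise 32 genes named for the small (40S) subunit and 53 named for the large (60S) subunit, among them 8 second copies (paralogs) named with L or L1. All 4 libraries came from MCF10A, an established non-tumour mammary epithelial line, grown in medium with horse serum, epidermal growth factor, cholera toxin and insulin. The cells had received a pHIV-ZsGreen lentivirus with Zeb1, with Snail, with Ovol2 or with no insert (empty vector, EV), and green cells were sorted 6 days later. The species of the delivered coding sequences is not stated in the labels. Zeb1 and Snail are zinc finger repressors known for turning epithelial cells mesenchymal, and Ovol2 is known for holding cells epithelial. RNA from a column kit was sequenced after TruSeq preparation, with 1 library per group, so the differences below have no replicate check and no p-value was computed.

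Ribosomal protein mRNAs are among the most abundant messages of a growing cell. Most of them begin with a run of pyrimidines directly at the cap, the 5′ terminal oligopyrimidine (TOP) element, through which the growth kinase mTOR and the binding protein LARP1 set how well they are translated and how stable they are. MYC raises transcription of ribosomal protein genes and of the factors that assemble ribosomes in the nucleolus. Some ribosomal proteins have duties off the ribosome, such as RPL5 and RPL11, which bind the p53 ligase MDM2.

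The start regions below show the TOP element in RPSA and RPS6, both lower with Zeb1, and in paralog pairs that the results turn on. Each sequence runs from 25 bases before to 15 bases from the annotated start, on the strand of the gene. Capitals mark the unbroken pyrimidine run where the start base is C and at least 4 pyrimidines follow.
RPSA: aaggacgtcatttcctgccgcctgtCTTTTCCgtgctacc
RPS6: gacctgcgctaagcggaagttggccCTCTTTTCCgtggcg
RPL22: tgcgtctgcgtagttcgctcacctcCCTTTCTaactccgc
RPL22L1: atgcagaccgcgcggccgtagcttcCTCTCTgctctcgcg
RPS27: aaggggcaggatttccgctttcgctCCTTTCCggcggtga
RPS27L: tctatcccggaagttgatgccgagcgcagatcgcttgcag
RPL26: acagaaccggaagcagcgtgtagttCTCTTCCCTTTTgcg
RPL26L1: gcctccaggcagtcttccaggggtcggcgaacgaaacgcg
They are RefSeq sequences of the build GRCh38.p14. RPSA lies at chr3:39406695-39406734 and RPS27 at chr1:153990737-153990776, both on the plus strand, as does RPL26L1 at chr5:172958704-172958743. On the minus strand lie RPS6 at chr9:19380222-19380261, RPL22 at chr1:6199581-6199620, RPL22L1 at chr3:170870181-170870220, RPS27L at chr15:63157463-63157502 and RPL26 at chr17:8383179-8383218. RPL22L1 has a TOP start like its partner RPL22, whereas RPS27L and RPL26L1 do not, unlike RPS27 and RPL26.

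A RefSeq start region was found for 68 of the 85 members, and 47 of the 68 had a TOP start at one or more annotated starts (69.1%), against 960 of 15833 genes of the tables (6.06%). The window of 300 bases around the start (250 before, 50 after) was also searched on both strands for short motifs. The E-box CAGGTG, a core bound by ZEB and SNAIL family proteins, was in 8 of 68 members (11.8%) and in 24.8% of all genes. The OVO-type core CCGTTA was in 6 (8.82%) against 4.50% of all genes, and the ETS-type core CCGGAA in 39 (57.4%) against 25.6%. A match is a string of letters and not a shown binding site.

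The libraries were checked against their labels. The gene of each factor had its highest value where that factor was delivered. ZEB1 was at 17.3 FPKM with Zeb1, 0.536 with Snail and 0.0380 with Ovol2, against 0.260 with EV. SNAI1 was at 0.436 FPKM with Zeb1, 99.7 with Snail and 0.725 with Ovol2, against 0.152 with EV. OVOL2 was at 0.563 FPKM with Zeb1, 5.26 with Snail and 78.3 with Ovol2, against 6.32 with EV. FPKM is the number of sequenced fragments scaled to transcript length and library size, the unit taken for the deposited values. All 10 markers listed for this epithelial line, such as KRT5, KRT17, TP63 and CDH1, were detected in all 4 libraries. Their medians of the log2 ratio to EV were -1.80 for Zeb1 (10 of 10 lower by 2-fold or more), -0.21 for Snail (0 of 10) and -1.78 for Ovol2 (8 of 10). Of all genes, 8.49%, 1.5% and 25.1% were lower by that much. Under 4 other scalings, used below, 9 or 10 markers were lower with Zeb1, against 4.98% to 6.98% of all genes. With Ovol2 it was 7 or 9, against 9.05% to 32.3%. Of 10 blood, endothelial and adipocyte markers, CD3E and HBB were listed at 0 in every library, and the highest value was VWF at 1.29 FPKM in the Ovol2 library. Their summed level was 0.218, 0.207 and 1.83 FPKM in the Zeb1, Snail and Ovol2 libraries and 0.0911 FPKM in the EV library. The steps between the lowest values gave an estimated depth of 34700000, 32100000 and 24400000 fragments for Zeb1, Snail and Ovol2 and 29400000 for EV. These are rough, since 18.1% to 23.3% of the ratios between low values lay within 1.5% of a ratio of small whole numbers.

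The ribosomal protein genes together summed to 24414 FPKM with Zeb1, 45097 with Snail and 59814 with Ovol2, against 42509 with EV. The Zeb1 sum was therefore 0.574 times, the Snail sum 1.06 times and the Ovol2 sum 1.41 times the EV sum. RMRP and RPPH1, 2 abundant RNase RNAs, held between 18.7% (Snail) and 40.6% (Ovol2) of all FPKM. With them left out, the ribosomal protein genes held 10.8%, 15.5% and 18.1% of the rest in the Zeb1, Snail and Ovol2 libraries, and 15.1% in the EV library. Of all FPKM with them counted, the shares were 8.4%, 12.6% and 10.8%, against 11.4% in EV, so the Ovol2 share was then below the EV share. In bulk RNA, fewer cells of a type and less RNA per cell cannot be told apart, and an FPKM is a share of its library and not an amount per cell.

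The highest member in every library was RPS18, a protein of the small subunit's head, at 1008 FPKM with Zeb1, 1936 with Snail and 2650.2 with Ovol2, against 1823 with EV. RPS6, the small-subunit protein phosphorylated by the S6 kinases, was at 861 FPKM (Zeb1), 1901 (Snail) and 2333 (Ovol2), against 1755 (EV). RPL37A was at 942 FPKM (Zeb1), 1707 (Snail) and 1948 (Ovol2), against 1589 (EV). In all 3 genes the Zeb1 library was lowest, EV and Snail lay close together and Ovol2 was highest. The order of the members within a library hardly differed: across the 85 members, which share their assay and short transcripts, Spearman's rho of the level with that in EV was 0.99 for Zeb1, 1.00 for Snail and 0.98 for Ovol2.

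**Figure D1:**
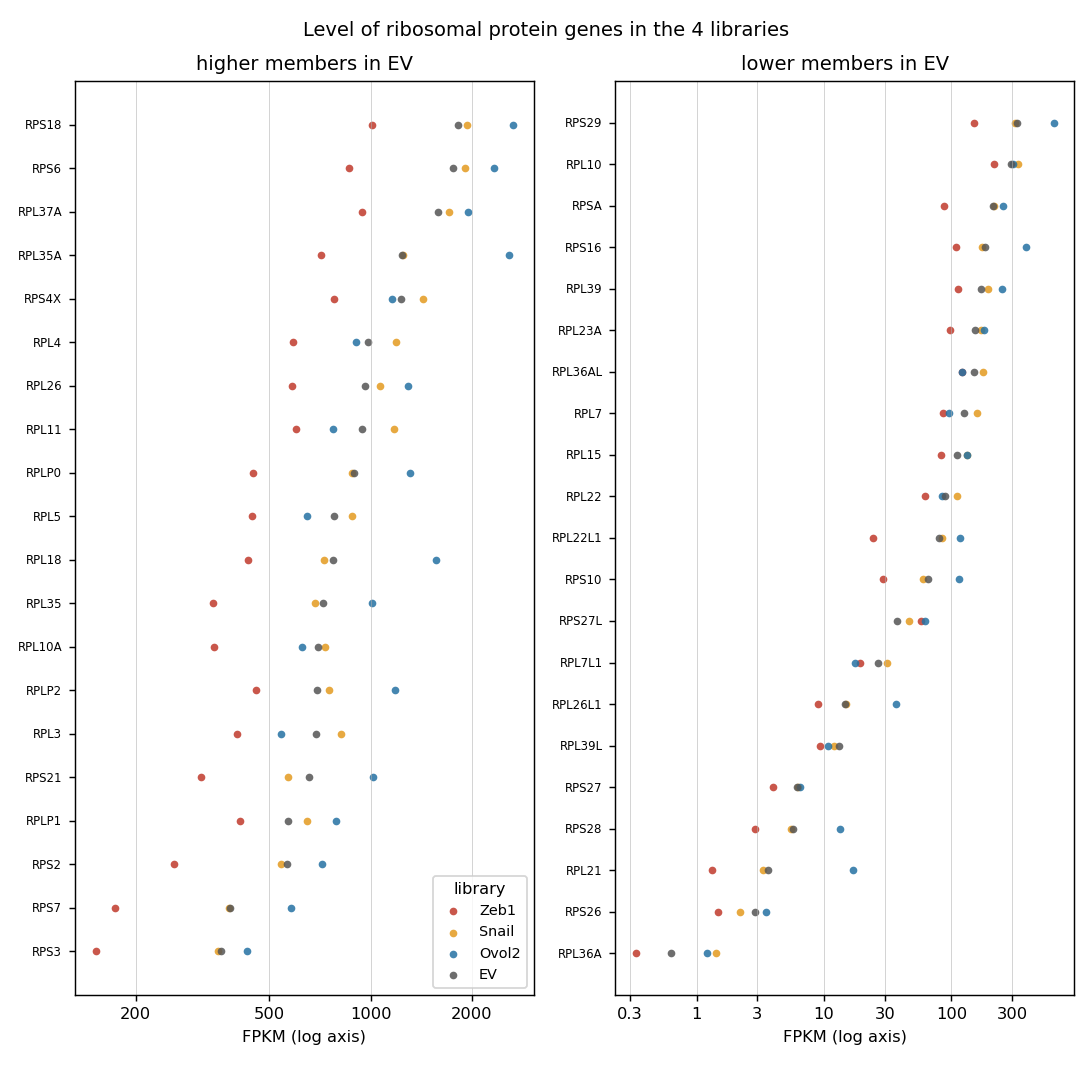
FPKM (log axis) of 41 ribosomal protein genes named in the text that reached 1 FPKM in any library, 1 row per gene sorted by the EV value, with 1 point per library. The Zeb1 point lies left of the EV point in 40 of the 41 rows, RPS27L being the exception, and the Ovol2 point lies right of it in 30.

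In the first comparison, Zeb1 against EV, nearly the whole set was lower by a similar amount. The measure is the log2 ratio of FPKM + 1, over genes that reached 1 FPKM in at least one of both libraries, and a gene was called at 2-fold, a log2 ratio of 1 in size. The filter kept 80 members. Their median log2 ratio was -0.77, with quartiles of -0.89 and -0.64, while all 11922 genes kept had a median of -0.09 and quartiles of -0.50 and 0.29. Of the members, 79 of 80 lay below 0, where 55.9% of all genes did. At 2-fold, 13 of 80 were called lower, against 8.49% of all genes, and 0 higher, against 4.52%. At 1.5-fold, 67 were lower, against 21.3% of all genes, and 1 higher, against 12.3%. The 2-fold count depends on the scale. After centring on well expressed genes, 3 of 80 members were called lower, under the share of 6.19% of all genes (6.21% were higher), and at a common sum without RMRP and RPPH1 it was 1 of 80, against 4.98%.

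The lowest ratio belonged to RPL22L1, the paralog of the large-subunit protein RPL22. It was at 24.3 FPKM with Zeb1, 85.1 with Snail and 117 with Ovol2, against 80.5 with EV, a log2 ratio of -1.69 for Zeb1. The Zeb1 value was thus the only one of the 4 below 80 FPKM. RPSA, the laminin receptor protein of the small subunit, was at 87.0 FPKM with Zeb1, 217 with Snail and 254 with Ovol2, against 211 with EV (-1.27 for Zeb1). RPS3, which lines the mRNA entry channel, was at 152 FPKM (Zeb1), 352 (Snail) and 430 (Ovol2), against 359 (EV), with -1.23 for Zeb1. Both small-subunit genes were lowest with Zeb1 and close to EV with Snail.

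RPS10 was at 29.2 FPKM in the Zeb1 and 65.4 in the EV library (-1.13), and RPS7, another small-subunit protein that binds MDM2, at 174 and 380.4 (-1.13). Others called lower were RPS2, RPS29, RPL35, RPS21, RPL10A, RPS6 and RPLP0, with log2 ratios between -1.12 and -1.0. RPL21, at 1.33 FPKM in the Zeb1 and 3.64 in the EV library, had a ratio just short of the threshold, since the pseudocount of 1 shrinks low values. Of the 13 called, 8 were small-subunit genes. The median was -0.81 over 31 small-subunit and -0.74 over 49 large-subunit members, a small gap beside the quartiles above. The acidic stalk that recruits elongation factors had RPLP0 at -1.0, RPLP2 at -0.59 and RPLP1 at -0.47.

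The member that stood apart from the rest was RPS27L, a paralog of RPS27 known as a p53 target. It was at 57.2 FPKM with Zeb1, 46.4 with Snail and 62.2 with Ovol2, against 37.7 with EV, so EV was the lowest of the 4. Its log2 ratio was 0.59 for Zeb1, the only one above 0, and 1.36 above the median of the members. The next highest were RPL36AL (-0.32), RPL15 (-0.40), RPL7L1 (-0.44) and RPL39L (-0.45). Apart from RPS27L and RPL22L1, every kept member lay within 1.5-fold of the members' median in this comparison.

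The members were also split by their start regions. In the Zeb1 library the median log2 ratio was -0.77 for the 45 kept members with a TOP start and -0.77 for the 20 without, and for the E-box it was -0.85 in 8 members with it and -0.77 in 57 without. In the Ovol2 library the medians were 0.51 for 46 members with a TOP start and 0.57 for 20 without.

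**Figure D2:**
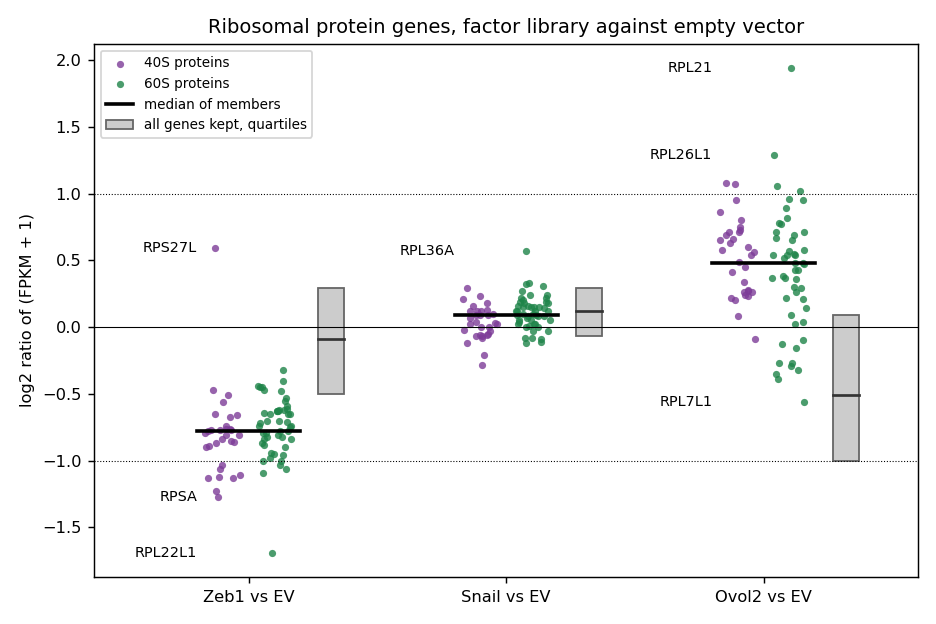
Log2 ratio of FPKM + 1 in each factor library to EV, 1 point per ribosomal protein gene, with 40S and 60S genes side by side, the members' median as a black bar and the quartiles and median of all genes kept as a grey box. Dotted lines mark 2-fold. The members gather near -0.77 with Zeb1 and 0.09 with Snail, and spread from -0.56 to 1.94 with Ovol2.

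In the authors' deposited table, which gives an adjusted p-value from 1 library against 1 library, 1 of the 80 members was higher and 24 lower at under 0.05 with Zeb1, against 41.0% and 51.9% of all genes kept. With Snail, 5 of 81 were higher and 4 lower, against 60.3% and 26.8%. With Ovol2, 13 of 81 were higher and 3 lower, against 25.3% and 69.6%. In all 3 comparisons these calls in the authors' deposited table were rarer among the members than among all genes.

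In the second comparison, Snail against EV, no ribosomal protein gene differed by 1.5-fold on this scale, where 4.59% of all genes were higher and 4.36% lower by that much. Of 81 members kept, 0 were called at 2-fold in either direction, against 2.51% of 11644 genes. Of the members, 60 of 81 lay above 0, where 67.6% of all genes did. The members' median was 0.09, with quartiles of 0.00 and 0.16, and that of all genes kept was 0.12. This small difference has no stable direction, since the median was -0.06 after centring or upper quartile scaling. Of members at 5 FPKM or more, the highest ratios were those of RPL7 (158 against 126 FPKM, 0.33), RPL11 (1172 against 941 FPKM, 0.32), RPL22 (0.31), RPS27L (0.29) and RPL4 (0.27). The lowest were RPS21 (567 against 656 FPKM, -0.21), RPL39L (-0.12), RPS10 (-0.12), RPL18 (-0.09) and RPS16 (-0.08). RPL36A had 0.57, at 1.42 FPKM in the Snail and 0.631 FPKM in the EV library, or about 31 and 13 fragments. The median was 0.03 over 31 small-subunit and 0.11 over 50 large-subunit members.

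In the third comparison, Ovol2 against EV, most ribosomal protein genes were higher while most other genes were lower. The median log2 ratio of 81 members was 0.48 (quartiles 0.23 and 0.71), against -0.51 (quartiles -1.0 and 0.09) for all 11812 genes kept. Of the members, 70 of 81 lay above 0, against 28.1% of all genes. At 2-fold, 6 were called higher, against 6.82% of all genes, and 0 lower, against 25.1%. At 1.5-fold, 29 were higher, against 12.7% of all genes, and 0 lower, against 46.1%. On the deposited scale the share called higher at 2-fold was thus near that of all genes. After centring, 34 of 81 members were called higher, against 13.4% of all genes (10.1% were lower), after upper quartile scaling 43, against 14% of all genes, and at a common sum 2, against 4.84%. No member was called lower under any of the 4 scalings.

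The called members were RPL21, RPL26L1, RPS28, RPS16, RPL35A and RPL18. RPL35A, a large-subunit protein mutated in some patients with Diamond-Blackfan anaemia, was at 713 FPKM with Zeb1, 1248 with Snail and 2579 with Ovol2, against 1236 with EV (1.06 for Ovol2). RPL18 was at 432 FPKM (Zeb1), 724 (Snail) and 1569 (Ovol2), against 773 (EV), with 1.02 for Ovol2. RPS16, which reaches the decoding site, was at 108 FPKM (Zeb1), 175 (Snail) and 388 (Ovol2), against 184 (EV), with 1.07. All 3 were highest with Ovol2, lowest with Zeb1 and close to EV with Snail.

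RPL21 was at 16.8 FPKM in the Ovol2 library, against 3.64 in the EV library (1.94), or about 263 and 69 fragments at the estimated depths. RPS28 was at 13.3 against 5.73 FPKM (1.08), about 429 and 223 fragments. RPL26L1, the paralog of the large-subunit protein RPL26, was at 37.05 against 14.5 FPKM (1.29). Without the 9 kept members that averaged under 20 FPKM over the 4 libraries, 3 members were called higher with Ovol2.

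The members spread more with Ovol2 (interquartile range 0.48) than with Zeb1 (0.25) or Snail (0.16). All genes kept had the same order, with 1.1 for Ovol2, 0.79 for Zeb1 and 0.36 for Snail. The 11 members below 0 held 10 large-subunit genes and RPS4X (1157 against 1234 FPKM, -0.09). They included RPL7L1 (-0.56), RPL7 (96.0 against 126 FPKM, -0.39), RPL3 (540.4 against 690 FPKM, -0.35), which shapes the peptidyl transferase centre, RPL36AL (-0.32), RPL11 (772 against 941 FPKM, -0.29), RPL5 (646 against 777 FPKM, -0.27) and RPL4 (902 against 984 FPKM, -0.13). RPL5 and RPL11 form the 5S particle of the large subunit with 5S ribosomal RNA. The sign of these genes depends on the scale, as RPL3, RPL4, RPL5 and RPL11 came to 0.10, 0.32, 0.19 and 0.17 after centring on the median of well expressed genes, and to -0.58, -0.35, -0.49 and -0.51 at a common sum without RMRP and RPPH1. The medians were 0.56 over 31 small-subunit and 0.45 over 50 large-subunit members. Within each library, the summed FPKM of 40S genes was 0.799 (Zeb1), 0.807 (Snail) and 0.866 (Ovol2) times that of 60S genes, against 0.831 in the EV library.

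Length moved with the ratios. Among all genes with a known length, Spearman's rho between transcript length and log2 ratio was 0.19 for Zeb1, 0.19 for Snail and -0.31 for Ovol2. Ribosomal protein transcripts are short, with a median of 691 nucleotides. Among 72 members that averaged at least 20 FPKM, rho was -0.01 for Zeb1, 0.29 for Snail and -0.41 for Ovol2. In the Ovol2 comparison the 24 shortest (up to 620 nucleotides) had a median of 0.60 and the 24 longest (from 772 nucleotides) a median of 0.28. Other genes of 401 to 1000 nucleotides had medians of -0.16 for Zeb1 (2774 genes), 0.08 for Snail (2718) and -0.26 for Ovol2 (2784). When each ratio was centred within 20 bins of transcript length, the members' medians were -0.59 for Zeb1, 0.01 for Snail and 0.72 for Ovol2. The shortest bin had a median length of 100 nucleotides and a median ratio of -0.65 with Zeb1. The next had 581 nucleotides and -0.07. The shortest members fell in the shortest bin, so they were not centred on genes of like length. RPL36 (504 nucleotides), for example, moved from -0.96 to -0.30 with Zeb1. The part of length in the spread among members was not tested.

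**Figure D3:**
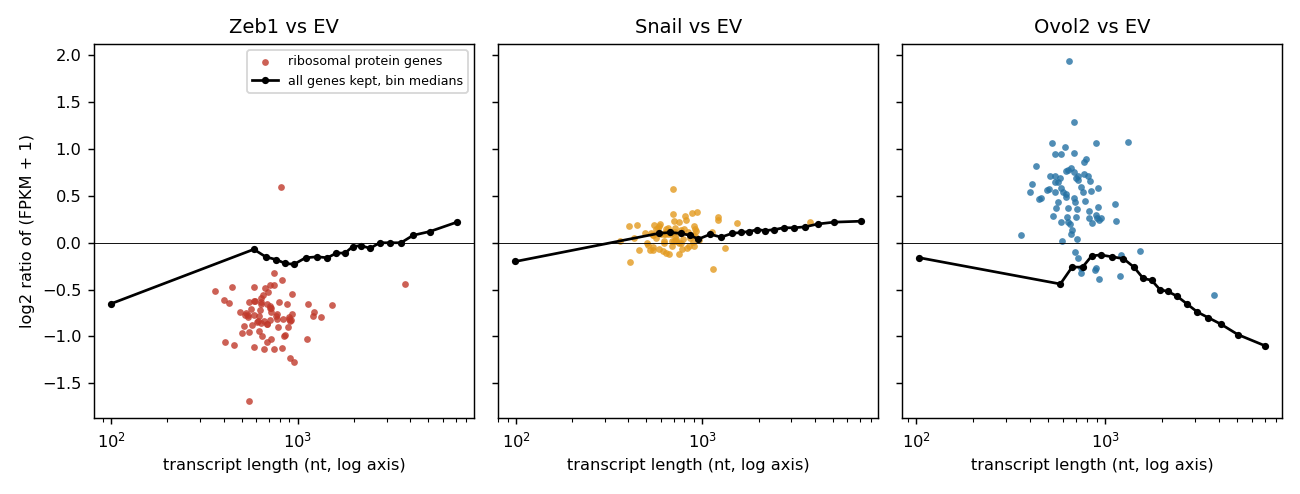
Log2 ratio of FPKM + 1 to EV (vertical) against transcript length in nucleotides (log axis) for ribosomal protein genes (coloured points) and the medians of 20 length bins of all genes kept (black line), 1 panel per comparison. All members but RPS27L lie below the line with Zeb1, they scatter around it with Snail, and most lie above it with Ovol2. There the line falls among the longest transcripts.

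The factor libraries were also set against each other, which does not involve the EV library. Ovol2 against Zeb1 gave a median of 1.30 over 81 members, with 55 higher at 2-fold, against 14.4% of 11991 genes, and 0 lower, against 28.8%. At a common sum the 55 became 19, against 8.51% of all genes. Of the members 80 lay above 0, against 36.1% of all genes. RPL7L1 was the single member below 0 (17.6 FPKM with Ovol2 and 19.3 with Zeb1, -0.12). Zeb1 against Snail gave a median of -0.86, with 16 of 81 lower at 2-fold, against 6.43% of 11732 genes, and 0 higher, against 2.34%. The 16 became 2 after centring (against 2.75% of all genes), 2 after upper quartile scaling (3.27%), 2 after centring by length (3.34%) and 1 at a common sum (2.53%). Of the members 80 lay below 0, against 66.9% of all genes. Ovol2 against Snail gave a median of 0.40, with 8 of 81 higher, against 8.83% of 11843 genes, and 0 lower, against 32.4%, and 66 lay above 0, against 27.6%. After centring and after upper quartile scaling that median was 1.05 and 1.08, with 45 of 81 higher in both (against 18.4% and 17.6% of all genes), by length 27 were higher (14.6%) and at a common sum 2 (7.13%). The 3 comparisons share libraries with those against EV.

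Ratios between a paralog and its partner within 1 library do not depend on scaling between libraries. RPL22L1 stood at 0.392 times RPL22 with Zeb1, 0.765 with Snail and 1.40 with Ovol2, against 0.897 with EV. RPL22 itself was at 61.8 FPKM (Zeb1), 111 (Snail) and 83.7 (Ovol2), against 89.7 (EV). RPL26L1 stood at 0.0153 times RPL26 with Zeb1, 0.0139 with Snail and 0.0287 with Ovol2, against 0.0151 with EV, and Ovol2 was the library that differed.

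RPL39L, best known from testis, stood at 0.0823 (Zeb1), 0.0615 (Snail) and 0.0426 (Ovol2) times RPL39, against 0.0758 (EV). RPL7L1 stood at 0.224, 0.196 and 0.183 times RPL7 in the Zeb1, Snail and Ovol2 libraries, against 0.210 in the EV library. No ratio was read for RPS27L and RPL36AL, whose partners RPS27 and RPL36A were at or below 6.51 and 1.42 FPKM in every library. RPL3L, the striated muscle copy of RPL3, and RPL10L, the testis copy of RPL10, stayed at or below 0.243 and 0.0988 FPKM.

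**Figure D4:**
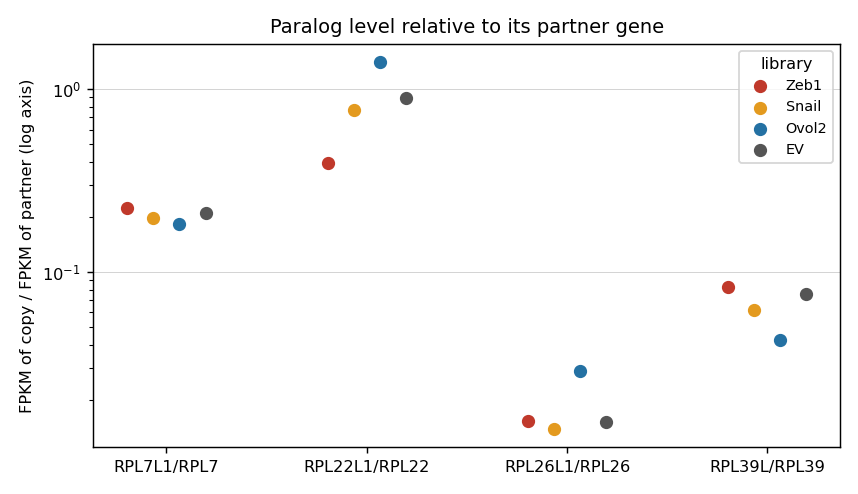
FPKM of a paralog divided by the FPKM of its partner gene in the same library (log axis) for 4 pairs, 1 point per library. RPL22L1/RPL22 ranges from 0.392 with Zeb1 to 1.40 with Ovol2, while RPL7L1/RPL7 stays between 0.183 and 0.224.

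Some members had low values, and those of RPL13A were too low to read. RPL13A was listed at 0 with Zeb1 and Snail, at 0.207 FPKM with Ovol2 and at 0.0254 FPKM with EV. It encodes a core protein of the ribosome, so this is not taken as absence. RPL36A, RPS26, RPL21, RPS28 and RPS27 stayed under 20 FPKM in every library as well. The Ovol2 calls of RPL21 and RPS28 rest on such low values. The reference annotation names pseudogenes after 77 of the 85 members, with 66 for RPL21, 30 for RPS26 and 3 for RPS28. RPL23A has the most, 91, and was at 154 FPKM with EV. The median number of named pseudogenes was 9.5 for the 10 members under 20 FPKM in every library and 8.0 for the other 75. Reads shared with such copies may have been split or dropped, and no source used here says how the authors counted them. The part of such reads in the low values was not tested.

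Other genes of protein synthesis were counted from lists. Their counts stand beside 8.49% of all genes lower and 4.52% higher at 2-fold with Zeb1, and 25.1% lower and 6.82% higher with Ovol2. At a common sum without RMRP and RPPH1, 32.3% of all genes were lower and 4.84% higher with Ovol2. After centring, upper quartile scaling and centring by length, 10.1%, 12.5% and 9.05% of all genes were lower with Ovol2. With Zeb1 these shares were 6.19%, 6.98% and 6.24%, and 4.98% at a common sum. Ribosomal proteins also come from genes with other names. FAU, whose small-subunit protein is made as a fusion, was at 169 FPKM (Zeb1), 266 (Snail) and 408 (Ovol2), against 259.6 (EV), with log2 ratios of -0.62 for Zeb1, 0.03 for Snail and 0.65 for Ovol2. GNB2L1 (RACK1), the signalling scaffold of the small subunit, was at 565 FPKM (Zeb1), 959 (Snail) and 928 (Ovol2), against 891 (EV). Its log2 ratios were -0.66 for Zeb1, 0.11 for Snail and 0.06 for Ovol2.

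Of 30 nucleolar factors that assemble ribosomes, 12 were lower at 2-fold with Zeb1 and 0 higher (median -0.96), and 30 of 30 lay below 0. Fibrillarin (FBL), the methylase of ribosomal RNA, was at 32.5 against 106 FPKM (-1.67), followed by RRP12 (-1.54), NHP2 (-1.48) and NOP16 (-1.47). The median remained negative under the 4 other scalings, from -0.95 to -0.67. With Ovol2, 6 of these 30 were lower and 0 higher (median -0.44), led by nucleolin (NCL) at 35.2 against 125 FPKM (-1.80), DKC1 (-1.40), NOLC1 (-1.39) and DDX21 (-1.29). That median was near the -0.51 of all genes, and it came to 0.01 after centring and 0.07 after upper quartile scaling, with 1 of 30 lower in both. At a common sum it came to -0.65, with 11 of 30 lower. With Zeb1 the 12 became 10, 10, 13 and 6 after centring, upper quartile scaling, centring by length and at a common sum. The medians of nucleolar factors and of ribosomal protein genes were thus both under that of all genes with Zeb1, while with Ovol2 that of the nucleolar factors was close to it and that of the ribosomal protein genes above it. With Snail 0 of 30 passed 2-fold (median 0.14, and -0.01 after centring).

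RNA polymerase I, which transcribes ribosomal RNA, and its factors had 1 of 14 lower with Zeb1 (POLR1B, -1.04; median -0.38), 0 with Snail (0.15, and -0.03 after centring by length) and 4 with Ovol2 (median -0.76), namely POLR1A (-1.46), UBTF (-1.37), RRN3 (-1.36) and TAF1B (-1.08). Both shares were near those of all genes, and the 4 became 1 after centring, 1 after upper quartile scaling and 0 by length. At a common sum they became 6, with a median of -0.95. Of 6 elongation factors, 2 were lower with Zeb1, EEF1E1 (-1.05) and EEF1B2 (-1.03), and 0 after centring. The medians were -0.61, 0.23 and -0.07 for Zeb1, Snail and Ovol2. The Ovol2 median turned to 0.38 after centring and to -0.29 at a common sum. EEF2, which moves the ribosome along the message, was at 589.6 FPKM (Zeb1), 931 (Snail) and 497 (Ovol2), against 721 (EV).

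Of 28 initiation factors, 2 were lower with Zeb1, EIF5A (-1.23) and EIF3K (-1.09), with a median of -0.40. With Ovol2, 3 were lower, EIF3A (-1.93), EIF4B (-1.63) and EIF5B (-1.26), and 1 higher, EIF6 (1.27), a factor of large-subunit maturation. Both shares called lower were under those of all genes. The Ovol2 median of -0.38 turned to 0.07 after centring and to -0.60 at a common sum, where 8 of 28 were lower. The Snail median was 0.21 with 0 past 2-fold. The snoRNA host genes, many of them TOP transcripts, had SNHG15 (-1.38) and SNHG8 (-1.08) lower with Zeb1 among 10. Their median with Zeb1 was -0.66, with 1 lower under each of the 4 other scalings. Past 2-fold there were 0 with Snail (median 0.23) and 0 with Ovol2 (median -0.04). The Ovol2 median was 0.41 after centring and -0.26 at a common sum, where 1 was lower.

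Other known TOP transcripts were less alike. Of 11, 0 were lower and 1, vimentin (VIM, 3.74), higher with Zeb1 (median -0.29, and 0.03 at a common sum without RMRP and RPPH1). TPT1 was at 469 FPKM with Zeb1 and 494 with EV (-0.07), and NPM1 at 150.1 and 294 (-0.97). With Snail VIM alone was higher (2.83; median 0.29). With Ovol2, VIM (-2.73), HNRNPA1 (-2.21) and NAP1L1 (-1.85) were lower (median -0.48, and 0.05 after upper quartile scaling). At a common sum 4 of 11 were lower with Ovol2, with a median of -0.70.

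Among 12 regulators of growth and TOP messages, MYC was at 65.3 FPKM with Zeb1, 223 with Snail and 101 with Ovol2, against 211 with EV. It was lower at 2-fold with Zeb1 (-1.67) and with Ovol2 (-1.05). With Ovol2 it came to -0.60 after centring, where it was not called, and to -1.27 at a common sum. RPS6KA1 (-1.77) and the translation inhibitor EIF4EBP1 (-1.46) were the others lower with Zeb1 (3 of 12, median -0.17, and 0.11 at a common sum). With Ovol2, 7 of 12 were lower, led by LARP1 (-1.59), and 1, RPS6KB2 (1.13), higher (median -1.03). After centring, after upper quartile scaling and by length, 1 of 12 was lower, with medians of -0.58, -0.59 and -0.27. At a common sum 8 of 12 were lower, with a median of -1.20. With Snail 0 of 12 passed 2-fold (median 0.09, and -0.05 after centring).

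**Figure D5:**
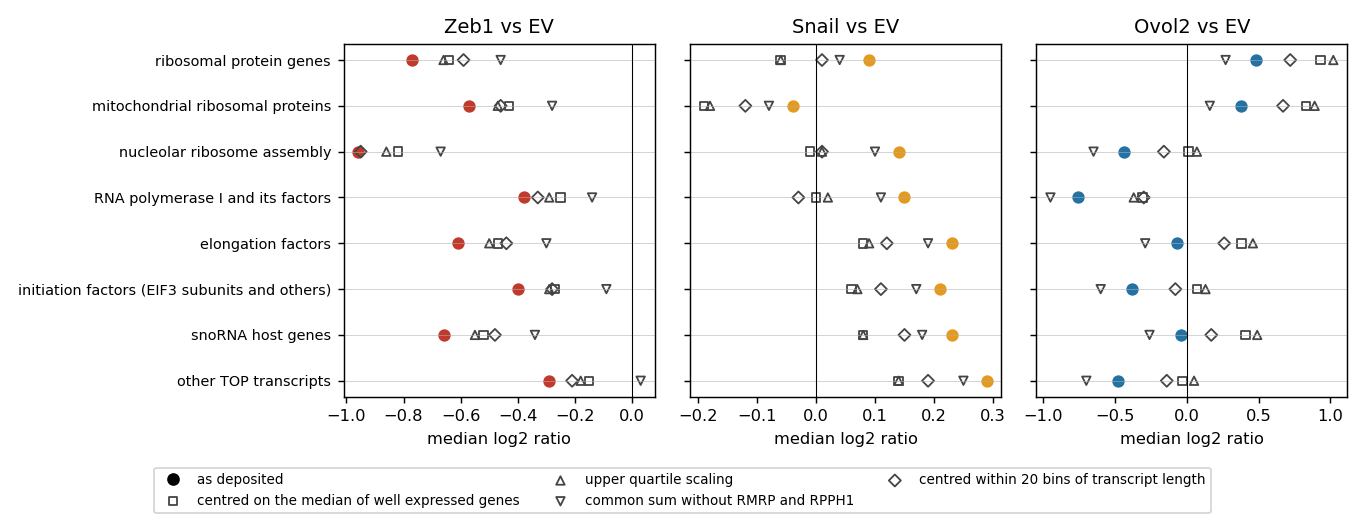
Median log2 ratio to EV (horizontal) of the ribosomal protein genes and 7 other lists, 1 panel per comparison with its own axis, as deposited (filled) and under 4 other scalings (open). The ribosomal protein median is negative with Zeb1 and positive with Ovol2 under all 5, and changes sign with Snail.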

How the data were processed

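RNA sequencing of 4 libraries, 1 per group, was deposited as 3 tables of 25360 rows, each holding the EV library and 1 factor library. The EV values were equal in all 3. The deposited values were taken as FPKM by the authors, a reading that rests on TopHat, Cufflinks, Cuffdiff and hg19 being listed in the submitters' processing notes. No header gives the unit, and versions, annotation, strand and any scaling between libraries are not given in the sources used here. Per the file headers, the authors' deposited adjusted p-value compares 1 library with 1 library, so it served only as an alternative call.

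Rows sharing a symbol (43) were summed. Log2 ratios of FPKM + 1 were formed for genes reaching 1 FPKM in at least one library of the pair, with Python 3.11.15 and pandas 2.3.3, and called at 2-fold. Steps were tested on simulated data. Transcript length was the median over coding transcripts of GENCODE 29, and start regions came from RefSeq. With no replicates there is no test. Depth was estimated from the ratio most often seen among values under 0.1 FPKM and from transcript lengths, so it is approximate. Fragment numbers carry the same limit, and their precision covers counting error only.

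The members and lists were chosen with earlier results of these data known. Named members were the 5 highest and 5 lowest ratios per comparison with EV at 5 FPKM or more, those past 2-fold, the 5 highest in EV, the paralogs and their partners, RPSA and the stalk. Some members and other genes that this rule takes are not reported here. Of other lists, up to 4 leading genes were named. Further genes, among them RPL3, RPL4 and RPS4X with Ovol2, TPT1, NPM1 and EEF2, were named after their values were seen. The alternatives were another pseudocount (0.1), other filters (none and 5 FPKM), 4 scalings, the highest row per symbol, a 1.5-fold call and the authors' adjusted p-value.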

Additional observations from a re-analysis of the deposited data

How the results depend on the processing

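No paired analysis was possible because each group held 1 library. Of 120 recomputed values, 97 kept the direction of a median and moved it by at most 1.5-fold, or kept a count within 1.5 times. The Zeb1 and Ovol2 medians kept their direction under every alternative run. The Snail median came to -0.06 after centring on well expressed genes and -0.06 after upper quartile scaling, and the Ovol2 against Snail median to 1.05 and 1.08. The 13 members lower with Zeb1 became 3 after centring, 6 after upper quartile scaling, 1 at a common sum without RMRP and RPPH1, 4 after centring by length, 67 at 1.5-fold and 24 by the authors' adjusted p-value. The 0 higher with Zeb1 became 1 at 1.5-fold and 1 by the authors' p-value. The 6 higher with Ovol2 became 34 after centring, 43 after upper quartile scaling, 2 at a common sum, 21 after centring by length, 3 without members under 20 FPKM (chosen after seeing the data), 29 at 1.5-fold and 13 by the authors' p-value, which put 3 lower. With Snail, a pseudocount of 0.1 gave 1 higher, and the authors' p-value 5 higher and 4 lower. Centring moved the ratios by the median of well expressed genes, -0.14 for Zeb1, 0.15 for Snail and -0.45 for Ovol2. Among all genes, those called higher and lower were 6.21% and 6.19% with Zeb1, 0.661% and 2.21% with Snail and 13.4% and 10.1% with Ovol2 after centring. Leaving out a library was not possible with 1 per group. Depth limits the members under 20 FPKM, and the lack of replicates limits all.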

Other observations

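The mitochondrial ribosome has its own set of nuclear-encoded proteins, and 77 MRPL and MRPS genes were kept in each comparison. With Zeb1 their median log2 ratio was -0.57, with 10 lower at 2-fold (8.49% of all genes) and 0 higher. MRPL52, at 8.21 FPKM with Zeb1 and 22.1 with EV (-1.32), MRPL14 (-1.19), MRPL3 (-1.17) and MRPL12 (-1.14) were the lowest. With Snail the median was -0.04 and 0 passed 2-fold in either direction. With Ovol2 the median was 0.38, with 11 higher (6.82% of all genes) and 0 lower. MRPL21, at 65.2 FPKM with Ovol2 and 23.1 with EV (1.46), MRPL54 (1.34), MRPL43 (1.33) and MRPL55 (1.27) were the highest. The Zeb1 and Ovol2 medians kept their direction under all 4 other scalings. The counts did not hold under centring, upper quartile scaling, centring by length and a common sum, in that order below. The 10 lower with Zeb1 became 3, 5, 2 and 1, against 6.19%, 6.98%, 6.24% and 4.98% of all genes. The 11 higher with Ovol2 became 27, 31, 21 and 6, against 13.4%, 14%, 11.7% and 4.84% of all genes. Under these scalings the Zeb1 counts of the 77 were thus below the share of all genes, and the Ovol2 counts above it. These comparisons share the EV library with each other.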
